A study of Xenopus laevis with 6 samples.

Results

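The cadherins, protocadherins, catenins, integrins, fibronectin, laminins and nidogens of the early gastrula of Xenopus laevis were read from 78 Affymetrix probe sets, out of 32539 on the array that are not Affymetrix controls. A probe set is a group of short oligonucleotides that together give 1 signal for a transcript. Members were chosen by gene symbol: the symbol, without the suffix L or S, began with cdh and a digit, or with pcdh, itga, itgb, lama, lamb, lamc or ctnna, or was fn1, ctnnd1, jup, papc, dag1, nid1, nid2 or fbn2. Genes for integrin beta binding proteins were left out. The 78 probe sets stood for 47 gene copies of 41 genes, among 11303 named gene copies on the array. The 41 count itgb2-a, a symbol described below, as a gene apart from itgb2. L and S mark the copies on the 2 subgenomes of this allotetraploid frog.

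The samples were pools of 5 whole embryos at Nieuwkoop and Faber stage 10.5, each embryo having received 20 ng of a morpholino, an antisense oligonucleotide, when it had 2 cells. Per the labels, 3 pools received a mispaired (mismatch) control morpholino and 3 received a morpholino against Ext1, a glycosyltransferase that elongates heparan sulfate chains. No strain, embryo sex or morpholino sequence is given in the sources used here, and because each pool holds whole embryos, fewer cells with a transcript and less transcript per cell cannot be told apart. The 6 columns of the signal table were the same profile multiplied by a constant, so the groups could not be compared. Every level below is that of 1 profile (n = 1, no error, no test). Whether this profile comes from control or from Ext1 morpholino embryos cannot be told from the columns. Whether the deposit or a later step made the columns proportional is not known.

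Cell adhesion at this stage holds the embryo together while its sheets of cells move. Cadherins are membrane proteins that bind the same cadherin on the next cell and are tied to actin through catenins, and protocadherins are related proteins that often regulate cell sorting. Integrins are pairs of 1 alpha and 1 beta chain that bind matrix proteins such as fibronectin and laminin, and in the amphibian gastrula a fibronectin matrix on the blastocoel roof carries the migrating mesoderm.

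All 78 member probe sets followed the constants of their columns. With 1 constant per column, 0 of the 78 departed from that constant beyond what rounding to 2 decimals allows, in 30 of 30 ordered pairs of columns. Among the 29 members with a signal over 100, the ratio of a column to the profile varied between members by at most 5.37e-05. The columns ran from 0.989 to 1.02 times the first control. The labelled stage was set beside marker genes. For early gastrula genes 17 of 17 gene copies had signals above the floor defined below, at 213.77 or more. For later muscle, blood, cartilage and neuronal genes 2 of 9 copies did. These 2 were the neuronal elavl3.L, the highest of the 9 at 51.6, and tubb2b.S, at 49.5. Of all named gene copies 80.4% were above the floor.

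**Figure D1:**
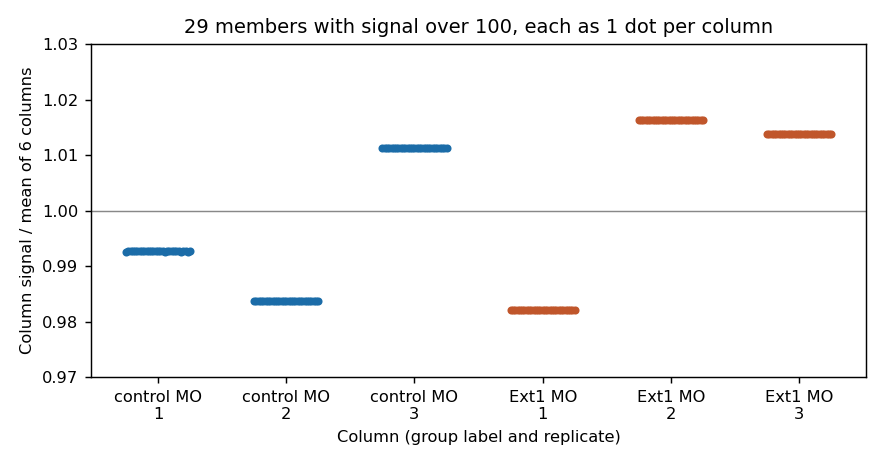
The signal of each column divided by the mean of the 6 columns (vertical axis, no unit) for the 29 member probe sets with a signal over 100, with 1 dot per member and column, blue for control and orange for Ext1 morpholino labels. The dots of a column lie on a line, so the columns differ by a constant that all members share.

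Each signal was set against the brightest of 17 Tag controls that the array carries, taken here as probe sets with no target in the embryo. That signal was 24.42, and is called the floor. The Tag controls ran from 0.805 to 24.42 with a median of 2.62, so the floor is the upper end of a wide range. It guides roughly, because background and response vary between probe sets. The choice of the brightest probe set of a copy, and the medians and shares over copies below, carry this limit. Signals of different genes are not ranked as amounts of transcript.

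Of the 47 gene copies, 28 (59.6%) had their brightest probe set above the floor, against 80.4% of all named gene copies. Of the 78 probe sets, 40 (51.3%) were above it, against 78.6% of all probe sets with 1 gene symbol and 72% of all probe sets. The median copy stood at 1.57 times the floor, and the median of all named copies at 14.6 times. Of the members, 18 copies exceeded 10 times the floor (38.3%, against 55.9% of all named copies), 5 lay between the floor and 2 times the floor, and 19 were not above it. Between 2 and 10 times the floor lay cdh2.L, pcdh8.L, itgav.L, dag1.S and itga3.L, at 2.20 to 6.25 times. Above 2 times the floor the members' share was 48.9% (74.1% of all named copies), and above 4 times it was 42.6% (67.8%). These shares describe 1 profile and were not tested.

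Cadherin copies were divided between a few strong signals and levels near or under the floor. Of 11 cadherin copies 7 were above the floor (63.6%, against 80.4% of all named copies). More than 10 times the floor was reached by 4 copies (36.4%, against 55.9%), namely cdh3.L, cdh3.S, cdh1.S and cdh26.S.

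The gene cdh3 encodes maternal cadherin of the kind that joins Xenopus blastomeres, known as C-cadherin or EP-cadherin, and RefSeq lists XB-cadherin and U-cadherin among the synonyms of its S copy. Its L copy read 11955, 11848 and 12179 in the columns of control samples 1, 2 and 3, and 11828, 12241 and 12210 in those of Ext1 morpholino samples 1, 2 and 3. The mean of 12043 is 493 times the floor. These 6 values overlap between the labelled groups and repeat the column constants, as do those of every other member. The S copy, cdh3.S, had a profile signal of 3297, or 135 times the floor. For E-cadherin, the cadherin of epithelial cells and of the Xenopus ectoderm, cdh1.S had a signal of 636, or 26.1 times the floor. In the RefSeq gene order cdh1.S and cdh3.S are neighbouring protein-coding genes, and both were above the floor.

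N-cadherin, encoded by cdh2, is the cadherin of the neural plate and later nervous system. Its L copy was read by 5 probe sets, at 53.8, 39.0, 14.2, 7.21 and 6.91, so 2 of the 5 were above the floor, the brightest at 2.20 times. The single probe set of cdh2.S, at 2.91, was below it. Cadherin-11, known from Xenopus neural crest and mesenchyme, had a cdh11.S signal of 28.6 (1.17 times the floor). The cadherin-16 copy cdh16.L had 2 probe sets, at 32.9 and 4.01, on either side of the floor. The other cadherin copies were under the floor: cdh6.L at 14.4, cdh20.L at 7.08 and cdh13.L at 1.88, the last encoding T-cadherin, which is held to the membrane by a lipid anchor and has no cytoplasmic tail. The remaining copy, cdh26.S, had a signal of 331 (13.5 times the floor).

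Catenins are the cytoplasmic partners of cadherins, and the member rule leaves out beta-catenin. Of the 6 catenin copies under the rule 5 were above the floor (83.3%, against 80.4% of all named copies). Each of the 5 exceeded it more than 10-fold, as did 55.9% of all named copies. Alpha-catenin links the cadherin complex to actin. The 2 probe sets of ctnna1.S, its epithelial and widespread form, read 3437 and 3273, which are 141 and 134 times the floor. The neural form, ctnna2.L, was at 16.1 (0.658 times). The related ctnnal1.S, which encodes alpha-catulin and was included because its symbol begins with ctnna, was at 1583 (64.8 times). Catenin p120, which binds the membrane-near part of the cadherin tail and holds cadherins at the surface, is encoded by ctnnd1, and ctnnd1.L had a signal of 5405 (221 times). Plakoglobin, a relative of beta-catenin found in desmosomes and adherens junctions, was above the floor for both copies: jup.L was at 3869 (158 times) and jup.S at 2317 (94.9 times).

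Protocadherin copies passed the floor in 5 of 7 cases (71.4%, against 80.4% of all named copies). Of the 7 copies, 2 exceeded it more than 10-fold (28.6%, against 55.9%). The copy pcdh8.2.L read 1159, 1149 and 1181 in the columns of control samples 1, 2 and 3, and 1147, 1187 and 1184 in those of Ext1 morpholino samples 1, 2 and 3. Its mean of 1168 is 47.8 times the floor. Its neighbour in the RefSeq gene order, pcdh8.L, carries the synonym papc, for paraxial protocadherin, a protein of the Xenopus gastrula mesoderm that takes part in convergence and extension movements. The 3 probe sets of pcdh8.L read 58.8, 8.15 and 3.47, so 1 of 3 was above the floor, at 2.41 times. That probe set is of a kind shared by transcripts of different genes (suffix _s_at), and without such probe sets pcdh8.L was under the floor at 8.15. Whether the probe sets of these neighbouring genes read 1 gene each was not tested. The list of genes to be named gives papc and axial protocadherin for pcdh8 and its numbered copies together. Which of pcdh8.L and pcdh8.2.L encodes paraxial protocadherin was thus not settled here.

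The copy pcdh1.L, which encodes a protocadherin of the delta class, had 6 probe sets, and all 6 were above the floor. They read 503, 169, 140, 122, 47.8 and 44.5, from 1.82 to 20.6 times the floor. The copy pcdh8l.S, for which RefSeq lists the synonym pcns, the protocadherin of Xenopus neural crest and somites, was at 38.3 (1.57 times), and pcdh20.S was at 27.0 (1.11 times). NF-protocadherin, known from the Xenopus neural folds and ectoderm, is encoded by pcdh7, and pcdh7.L was under the floor at 3.89. The clustered protocadherin pcdhga3.L was under it at each of its 3 probe sets, of which the brightest read 18.9.

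**Figure D2:**
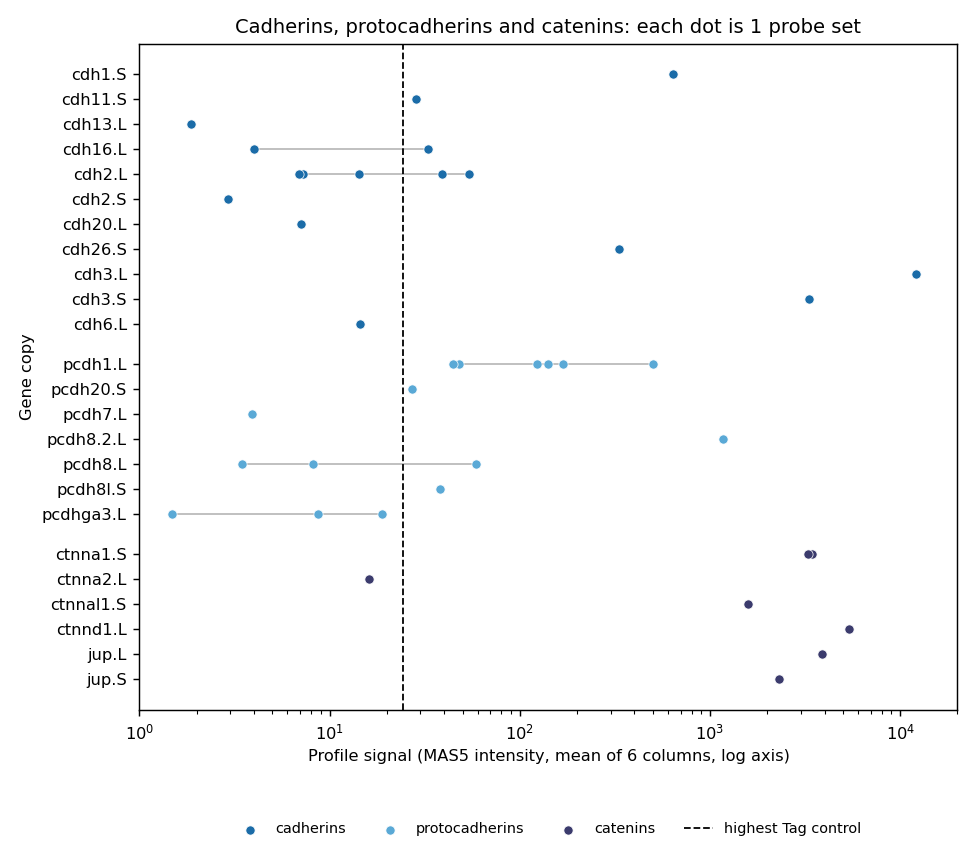
Profile signal (horizontal log axis, intensity) of each cadherin, protocadherin and catenin copy, with 1 dot per probe set, a grey line joining those of a copy, and a dashed line at the floor of 24.42. The dots of cdh3.L and cdh3.S, ctnnd1.L, jup.L, jup.S and ctnna1.S lie far to the right of the line, whereas cdh2.S, cdh6.L, cdh13.L, cdh20.L, ctnna2.L, pcdh7.L and pcdhga3.L lie to the left of the line.

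Integrin alpha chains gave few signals above the floor. Of 10 copies 4 passed (40%, against 80.4% of all named copies). Of the 10, 3 exceeded 2 times the floor (30%, against 74.1%), and 1 exceeded 10 times (10%, against 55.9%). The last was alpha 5, the chain of the main fibronectin receptor: itga5.L had 3 probe sets, at 390.2, 341 and 15.3, with 2 of them above the floor at 16.0 and 14.0 times. The S copy, itga5.S, was under it at 13.9. The chain alpha 3, a laminin receptor chain, was read by 3 probe sets of itga3.L, at 153, 4.28 and 1.82, so 1 of 3 passed. The chain alpha V, which pairs with several beta chains to bind fibronectin and vitronectin, had a signal of 72.8 for itgav.L (2.98 times). The collagen receptor chain alpha 11 had 2 probe sets on either side of the floor, itga11.S being at 29.9 and 9.71.

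The other 6 alpha copies were under the floor at every probe set. For itga4.S, the alpha chain of another fibronectin receptor, the signal was 1.41. The laminin receptor chain alpha 6 was read by 2 probe sets of itga6.L, at 4.16 and 3.06. The collagen receptor chain itga2.L was at 18.6 and 3.12, and the platelet chain was at 19.1 for itga2b.1.S and at 2.66 and 2.07 for itga2b.2.L. The sixth was itga5.S.

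Integrin beta chains showed no intermediate levels by this measure: 3 of 8 copies exceeded 10 times the floor and the other 5 were not above it. Their share was thus 37.5% at both cuts, against 80.4% of all named copies above the floor and 55.9% above 10 times. The common partner beta 1, which pairs with alpha 5 and many other chains, was at 9698, 9612 and 9880 in the columns of control samples 1, 2 and 3 for its brightest itgb1.L probe set, and at 9595, 9930 and 9905 in those of Ext1 morpholino samples 1, 2 and 3. The mean of 9769.85 is 400 times the floor. The second itgb1.L probe set, at 729, was 29.8 times the floor, and itgb1.S, at 3367, was 138 times. For beta 5, a partner of alpha V, itgb5.L was at 1120.07, 622 and 12.9 by its 3 probe sets, so 2 of 3 passed.

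Among the 5 beta copies not above the floor, 2 lay at it. The beta 3 copy itgb3.L, at 24.41, was 0.999 times the floor. It was below the highest Tag signal of the same column by 0.01 to 0.02 in each of the 6 columns, which repeat 1 profile. A probe set annotated as itgb2-a, for the leukocyte chain beta 2, was at 24.28 (0.994 times). RefSeq gives that name as a synonym of itgb2.L, but the gene ID of the probe set was another. It was therefore counted as a copy and a gene of its own. The next members above the floor were pcdh20.S, at 27.0, and cdh11.S, at 28.6. The itgb2.L probe sets were at 9.52 and 5.88. The epithelial chain beta 6 was at 18.2 and 2.51 for itgb6.L, and itgbl1.L, which encodes an integrin beta-like protein with no membrane span and was included by its symbol, was at 14.8.

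Of the matrix genes, fibronectin had strong signals. The brightest of the 4 fn1.S probe sets read 7202, 7138 and 7337 in the columns of control samples 1, 2 and 3, and 7125, 7374 and 7355 in those of Ext1 morpholino samples 1, 2 and 3. The mean of 7255 is 297 times the floor. The next 2 fn1.S probe sets, at 4126 and 2879, were 169 and 118 times the floor, while the dimmest, at 22.6, was under it (0.926 times). Nidogen-2, a basement membrane protein that links laminin to collagen IV, was at 962 for nid2.L (39.4 times), read by a single probe set of the shared _s_at kind. Dystroglycan, a laminin receptor outside the integrin family, was above the floor for both copies, with dag1.L at 920.1 (37.7 times) and dag1.S at 114 (4.66 times).

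Laminins, trimers of an alpha, a beta and a gamma chain that form basement membranes, were barely covered by the named probe sets. The RefSeq gene list holds 12 laminin copies of 9 genes under the rule, and 1 of the 12, lamb2.L, was the name of a probe set used here. Its signal of 1.95 was 0.0798 times the floor and below the median Tag control (2.62). The levels of laminin alpha and gamma chains, and of nidogen-1 and fibrillin-2, were not analysed here because no probe set carried their symbol alone. Of the 32539 probe sets that are not controls, 16765 had no gene symbol and 279 had several. Apart from a probe set annotated to both dag1.L and dag1.S, described further below, whether any of those read a gene of the rule was not examined. Over the rule as a whole, 46 of 125 RefSeq copies had a named probe set: 11 of 34 for cadherins, 7 of 27 for protocadherins, 6 of 7 for catenins, 10 of 22 for integrin alpha chains, 7 of 14 for integrin beta chains, and 5 of 21 for matrix and dystroglycan. The copy itgb2-a is outside this count, since its gene ID was not in that list.

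**Figure D3:**
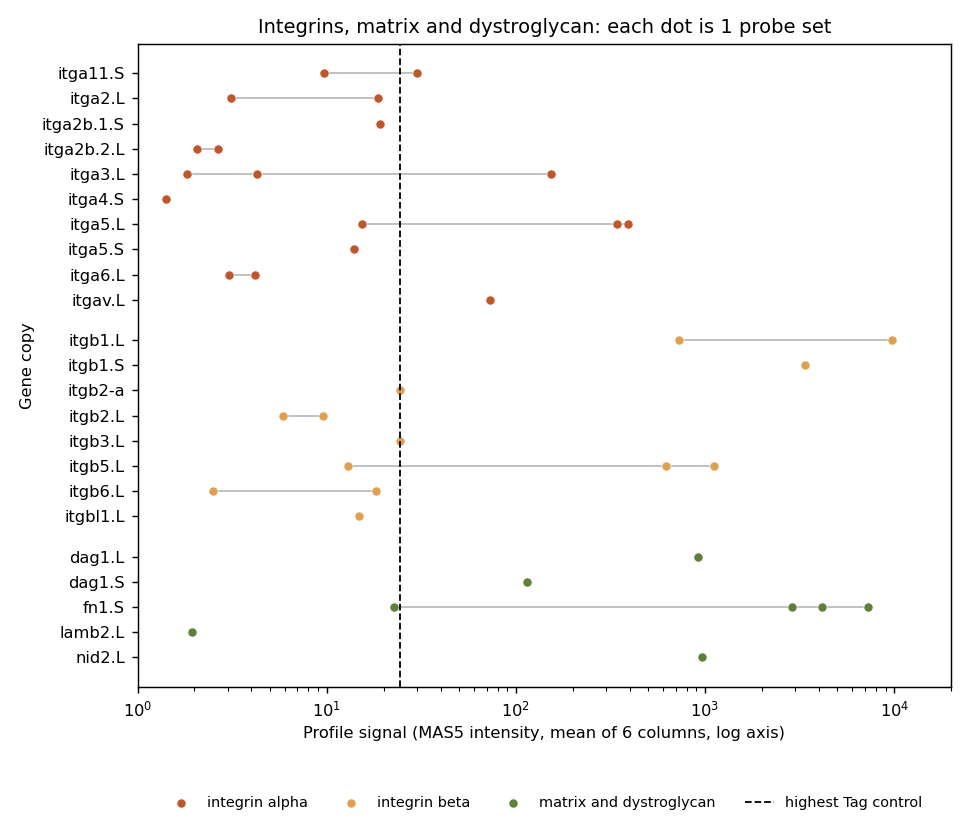
Profile signal (horizontal log axis, intensity) of each integrin, matrix and dystroglycan copy, with 1 dot per probe set, a grey line joining those of a copy, and a dashed line at the floor of 24.42. The copies itgb1.L, itgb1.S, dag1.L, dag1.S and nid2.L have all their dots to the right of the line, and fn1.S, itga3.L, itga5.L, itga11.S and itgb5.L have dots on both sides.

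By family, the share of copies above the floor was 83.3% for catenins (5 of 6), 80% for matrix and dystroglycan (4 of 5), 71.4% for protocadherins (5 of 7), 63.6% for cadherins (7 of 11), 40% for integrin alpha chains (4 of 10) and 37.5% for integrin beta chains (3 of 8). The share of all named copies was 80.4%. That of catenins was above it, that of matrix and dystroglycan was just below it, and those of protocadherins, cadherins and both integrin groups were below it. With 5 to 11 copies in a family, 1 copy moves a share by 9.09 to 20 percentage points, and the differences between families were not tested. Above 10 times the floor the catenin share was still 83.3%, while that of integrin alpha chains was 10% (1 of 10).

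**Figure D4:**
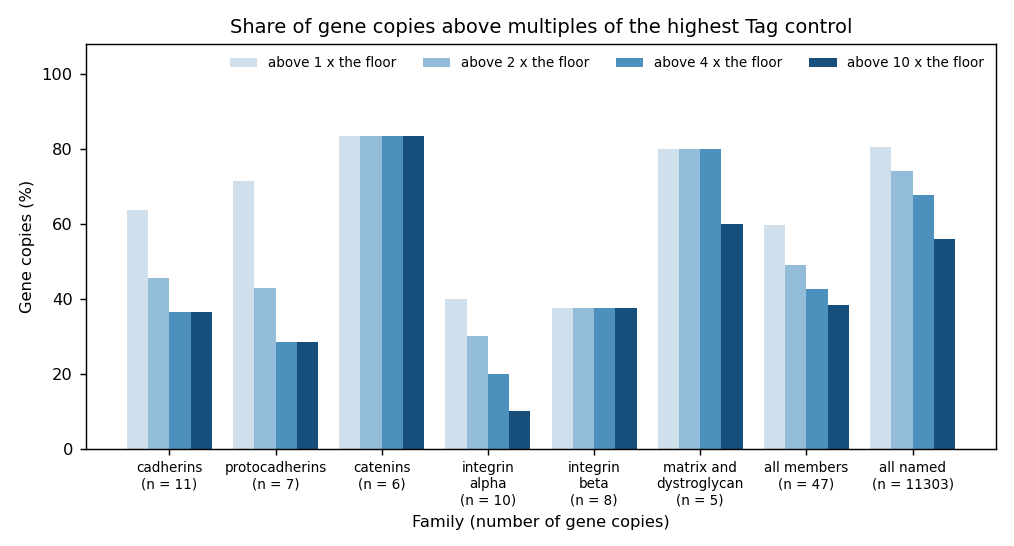
Share of gene copies (vertical axis, percent) whose brightest probe set lay above 1, 2, 4 and 10 times the floor, for each family, for all 47 member copies and for all 11303 named copies. The bars of the members go from 59.6% to 38.3% and those of all named copies from 80.4% to 55.9%. Catenins keep the same height at every multiple, and the bars of integrin alpha chains shorten from 40% to 10%.

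Both subgenome copies were measured for 6 genes. For cdh3, jup, itgb1 and dag1 both copies were above the floor, and for cdh2 and itga5 the L copy was above it and the S copy was not. That is 2 of 6 genes with copies on opposite sides, against 11.9% of all 2009 genes with both copies named. In each of these 2 genes the L copy had more probe sets (5 for cdh2.L and 3 for itga5.L) than the S copy, which had 1. Over all members 15 of 29 L copies were above the floor, against 80.6% of all named L copies, and 13 of 17 S copies, against 81.6% of all named S copies. The difference between L and S copies was not tested. No probe sequences were used, so how well probe sets tell L from S was not examined.

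Probe sets of 1 copy often disagreed. Of the 17 copies with more than 1 probe set, 8 had probe sets on both sides of the floor (47.1%), against 21% of all such named copies. The 8 were cdh2.L, cdh16.L, pcdh8.L, itga3.L, itga5.L, itga11.S, itgb5.L and fn1.S. In the other 9, all probe sets were above the floor for ctnna1.S, pcdh1.L and itgb1.L, and none was for itga2.L, itga2b.2.L, itga6.L, itgb2.L, itgb6.L and pcdhga3.L. Each level above is thus given for a probe set, and no single level for the gene. For some copies, such as itga11.S, 2 probe set names differ only in a letter, S or A. The single probe set of cdh26.S was marked A, as were the only probe sets of cdh16.L and pcdh8.L above the floor. Whether probe sets marked S and A read the same strand was not examined.

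The kind of probe set differed as well. Affymetrix marks with the suffix _a_at those that read several transcripts of 1 gene, with _s_at those shared by transcripts of different genes, and with _x_at those with probes that resemble other sequences. All 6 member probe sets with _a_at were above the floor (87.1% of such probe sets with 1 symbol), as were 5 of 10 with _s_at (81.9%), 0 of 3 with _x_at (79.1%) and 29 of 59 with a plain _at (77.8%). Copies with 1 probe set passed in 17 of 30 cases (56.7%, against 77.8% of such copies on the array) and those with several in 11 of 17 (64.7%, against 88.7%). The part of the number of probe sets in the members' share was not tested.

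Other genes of cell adhesion, from a list of 78 genes whose symbols fall outside the member rule, were read for 63 genes and 86 copies. Some, such as beta-catenin, are related to the families above, so the family shares cover only the copies that the rule takes in. Of the 86 copies 64 were above the floor (74.4%), against 80.4% of all named copies. Though tjp1.S (1.08 times the floor) and cldn1.S (1.18 times) only just passed, all 23 copies of other cell-cell adhesion genes were above it. They included beta-catenin, the cadherin partner and Wnt effector, at 12151 for ctnnb1.L and 10013 for ctnnb1.S, and FLRT3, a membrane protein that in Xenopus lowers C-cadherin at the cell surface, at 1945 for flrt3.L and 775 for flrt3.S. Of 27 copies of genes that link integrins to actin and to signalling 24 passed (88.9%, against 80.4% of all named copies). Among them were focal adhesion kinase (ptk2.L at 402, ptk2.S at 375), paxillin (pxn.S at 412), vinculin (vcl.S at 133) and integrin-linked kinase (ilk.S at 125). The copy fermt1.S only just passed (1.14 times the floor), and actn4.L at 19.2, bcar1.L at 23.0 and fermt1.L at 15.7 did not.

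Of the other matrix and proteoglycan genes 11 of 23 copies passed (47.8%, against 80.4% of all named copies). The heparan sulfate proteoglycan syndecan-4, a co-receptor for fibronectin, was at 4949.84 for sdc4.L and 1831 for sdc4.S, whereas the fibrillar collagen copies col1a1.S, col1a2.L, col2a1.L, col3a1.S and col5a1.L were under the floor, at 0.582 to 16.4. Of the basement membrane collagen IV, col4a1.L was above it at 54.4 and col4a2.L under it at 9.10. Of 6 copies of matrix proteases and their inhibitors 3 passed (50%), and of 7 copies of transcription factors of mesenchymal transition 3 did (42.9%). Those 3 were snai1.S, which in other systems represses E-cadherin, at 1809, zeb2.S at 597 and zeb1.S at 41.6. The copies snai2.L, snai2.S, twist1.L and zeb1.L were under the floor, at 10.1 to 17.6. These roles were assigned after the values were seen.

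**Figure D5:**
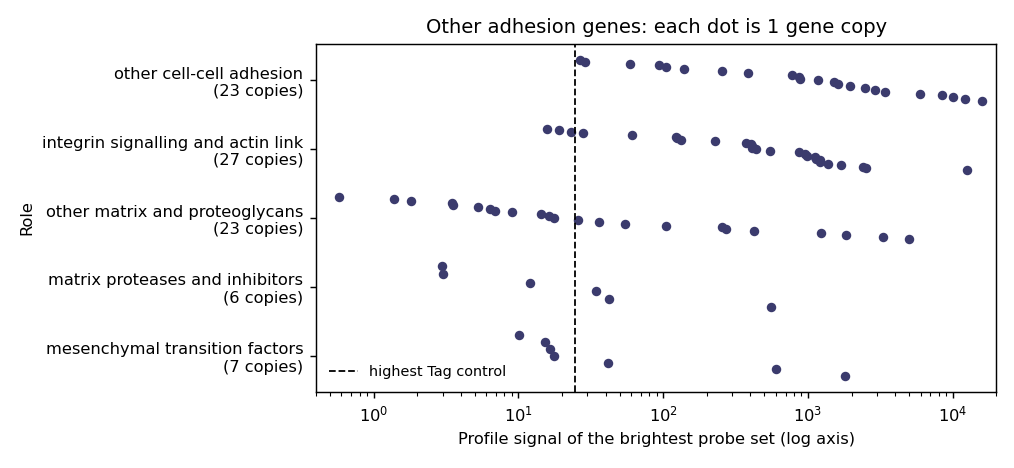
Profile signal of the brightest probe set (horizontal log axis, intensity) for the 86 copies of other adhesion genes in 5 roles, with 1 dot per copy, spread within a role from the lowest to the highest, and a dashed line at the floor of 24.42. All 23 copies of other cell-cell adhesion lie to the right of the line, and 12 of the 23 copies of other matrix and proteoglycan genes lie to its left.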

How the data were processed

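RNA of whole embryos was hybridised to the version 2.0 Xenopus laevis array of Affymetrix. The authors deposited linear intensities, summarised with MAS5 per the submitters' processing notes; its settings and detection calls are not given in the sources used. Gene symbols came from the platform annotation; 77 of 78 members had their gene ID in the RefSeq list of assembly Xenopus_laevis_v10.1, and 0 were renamed. The number of arrays limits the precision, here 1 profile.

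Columns were compared by asking whether 1 factor turns one into the other for every probe set, with each value within 0.005 of its true value. On simulated data of 32635 probe sets, made by scaling 1 column, 0 fell outside for proportional columns. All 200 that were changed by 1.5-fold, drawn from signals over 100, were found. Both outcomes followed from how the data were made, so they show only that the procedure ran as written. Signals of 100 or less were not among those changed. The profile is the mean of the 6 columns, and the floor is the highest Tag signal. A gene copy is given by its brightest probe set. The intensities were not tested, and no fit was made. Python 3.11.15, numpy 2.4.6, pandas 2.3.3 and matplotlib 3.10.9 were used.

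The members, the floor and the lists were chosen with earlier results of these data known, and the 5 roles within the list of other adhesion genes were assigned after its values were seen. By rule, the text names the 26 of 36 listed genes that had a measured copy, and members under, near or on both sides of the floor; the remaining members are named to account for all 47 copies. The other adhesion genes named were chosen after the values were seen. Alternatives were other floors, each column alone, the columns without 1 sample, other summaries of a copy and other probe set filters.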

Additional observations from a re-analysis of the deposited data

Results flagged for a closer look

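Outside the members, 2 probe sets with related symbols had signals above the floor. A probe set annotated to both dag1.L and dag1.S, which the rule leaves out because it has 2 symbols, was at 165.49 (6.78 times the floor), and both single-copy dag1 probe sets were above the floor too. One of 2 probe sets of itgb1bp2.L, an integrin beta binding protein left out by the rule, was at 123.178 (5.04 times), and the other was under the floor at 18.9. The control columns hold the same profile as the Ext1 morpholino columns, so neither signal was set against a control group.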

How the results depend on the processing

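The counts depended on where the floor was placed. With the median Tag signal (2.62) as the floor, 71 of 78 probe sets and 44 of 47 copies were above it, in place of 40 and 28. With 2 times the floor the counts were 32 and 23, and with 4 times 29 and 20. Each column alone, and the mean without any 1 sample, gave 40 probe sets and 28 copies. Because the columns are proportional, these counts were fixed in advance and are no check across samples. Platform symbols with no update had to give the same counts, since 0 members were renamed. Taking the median probe set of a copy left 23 copies above the floor, and asking it of every probe set left 20. For the copies of the genes named by rule, the median multiple of the floor was 11.1 with the brightest probe set and 5.02 with the median one. Under that summary 5 copies were no longer above it: cdh2.L (0.582 times the floor), cdh16.L (0.755), itga3.L (0.175), itga11.S (0.810) and pcdh8.L (0.334). Chosen after seeing the data, a floor raised by 1% gave 40 and 28, and leaving out _s_at and _x_at probe sets gave 35 of 65 probe sets and 26 of 46 copies, with nid2.L no longer read and pcdh8.L under the floor; counting itgb2-a with itgb2.L gave 28 of 46 copies. With any column as the base, 0 member probe sets were outside rounding. No paired analysis was possible because the result comes from no test and the columns hold 1 profile.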
